A study of Mus musculus with 6 samples.

Results

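The 36 genes described here encode enzymes of sterol and fatty acid synthesis, together with regulators and transporters of sterols, and make up 36 of the 47643 reference genes in the deposited tables. They were taken by gene symbol from a list of this pathway, with no measured value in the rule. The list was nevertheless chosen with earlier results of these data known. The list falls into 5 role groups: 7 genes of the mevalonate pathway, 11 genes from squalene to cholesterol, 5 genes of SREBP control, 9 genes of fatty acid synthesis and 4 genes of LXR signalling and sterol transport. RNA was sequenced from natural regulatory T cells (nTregs), the CD4 T cells of thymic origin that depend on the transcription factor Foxp3. The cells came from the spleens of C57BL/6 mice with the genotype Foxp3-DTR/EGFP in both groups, an allele that places EGFP and a diphtheria toxin receptor under the control of Foxp3. They were stimulated for 2 days through CD3 (antibody on the plate) and CD28 (antibody in solution) with IL-2. For the next 6 h they received DMSO vehicle (3 libraries) or an agonist of the prostaglandin E2 receptor EP4 at 100 nM (3 libraries), and GFP-positive cells were then sorted. The labels do not name the agonist or give the age of the mice, and they do not say whether the libraries of a group come from separate mice or cultures. The p-values therefore refer to the spread among the 6 libraries, and that spread may be technical. In bulk RNA of this kind, fewer cells of a type and less RNA per cell cannot be told apart.

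Cells make cholesterol from acetyl-CoA through mevalonate, farnesyl diphosphate and squalene, and they make fatty acids from acetyl-CoA through malonyl-CoA. Both routes are switched by the SREBP transcription factors, which Scap carries from the endoplasmic reticulum to the Golgi for cleavage and which Insig proteins hold back when sterols are plentiful. LXR receptors respond to oxysterols and raise genes of sterol export. In activated T cells these routes supply membrane for growth, and the mevalonate pathway also supplies prenyl groups for small GTPases.

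Of the 36 genes, Elovl6, which lengthens saturated and monounsaturated fatty acids of the length that fatty acid synthase releases, was the 1 that rose with the agonist, from a mean of 15.6 to 29.6 FPKM (fragments counted on a gene, scaled to its transcript length and to the library's fragment total). No other member passed the test in either direction. For 27 of the 34 tested members the log2 fold change lay within 0.2 of 0. The test was limma on log2(FPKM + 1), with p-values adjusted by the Benjamini-Hochberg method over all 12186 reference genes that reached 1 FPKM in 3 or more libraries, and a gene was called at an adjusted p under 0.05. Scd1 and Abca1 did not reach that level and were not tested. Over all tested genes 0.394% were called (0.345% higher and 0.0492% lower), beside 1 of 34 members higher and 0 lower. An unadjusted p under 0.05 was met by 4 members (Elovl6, Scap, Stard4 and Tm7sf2) and by 14% of all tested genes. The median log2 fold change was -0.03 over the tested members and -0.03 over all tested genes. Among the members, 12 had a higher and 22 a lower estimate with the agonist, without the same share over all tested genes for comparison. After quantile normalization the median was 0.0108 over the tested members and -0.00629 over all tested genes. The 95% interval of the fold change lay inside 2-fold in either direction for 32 of the 34 members, with Elovl6 and Dhcr7 as the others. It lay inside 1.5-fold for 28 members.

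**Figure D1:**
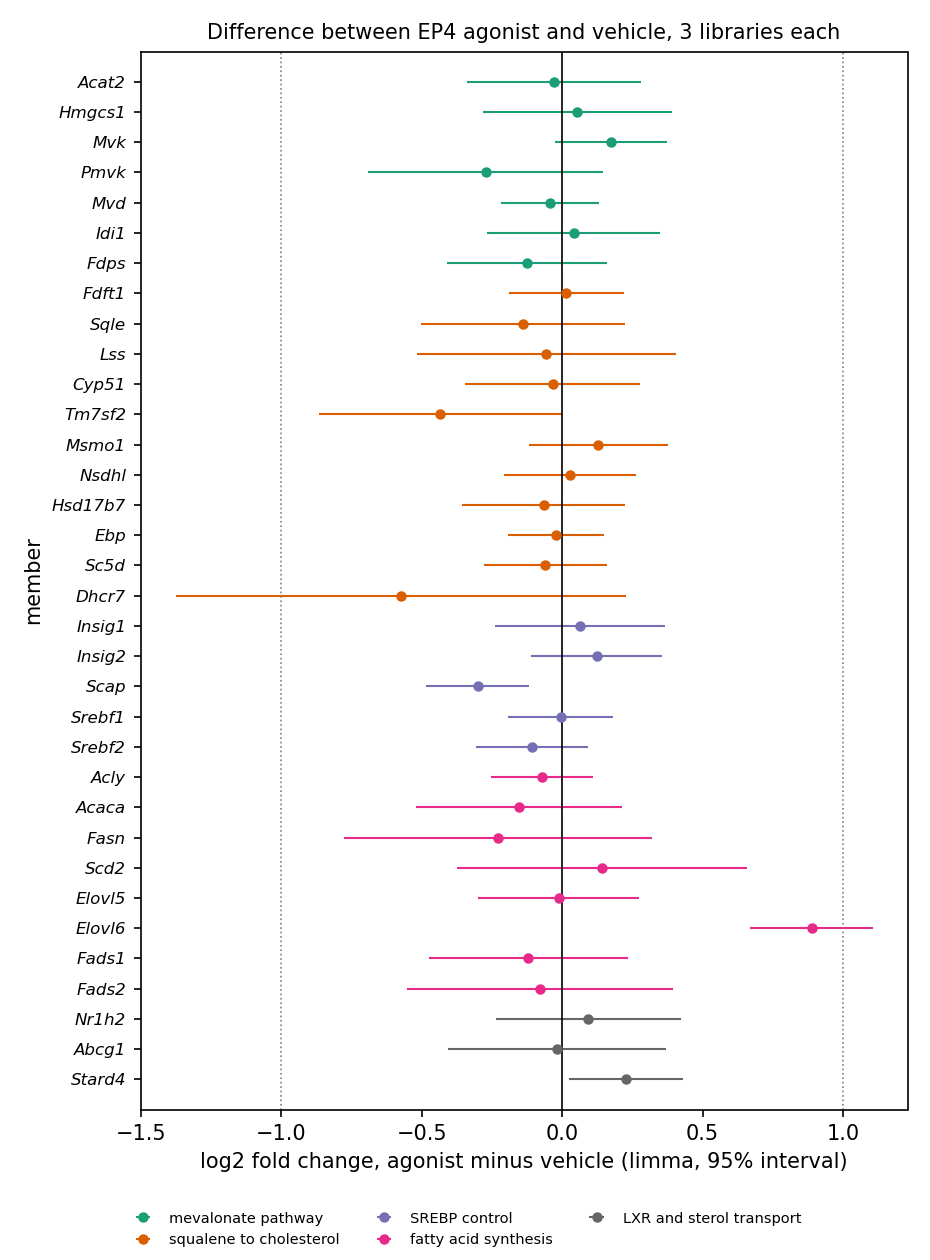
Log2 fold change (agonist minus vehicle, on the log2(FPKM + 1) scale) of the 34 tested members with its 95% interval from limma, coloured by role, with dotted lines at a 2-fold difference. The interval of Elovl6, from 0.670 to 1.11, lies above 0 and above those of the other members. The nearest, that of Scd2, reaches 0.657, and the interval of Dhcr7 is the widest.

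The libraries carry the replicate numbers 1 to 3 in both groups, and libraries with the same number deviated together from their group means. With the number as a block in the model, 3 of the 34 members (8.82%) passed, Elovl6 higher and Fasn and Scap lower, beside 10.5% of all tested genes (4.09% higher and 6.41% lower). After quantile normalization of the libraries, the blocked fit called 519 genes higher and 478 lower over all tested genes, against 498 higher and 781 lower on the values as deposited. The 3 agonist values lay wholly above or wholly below the 3 vehicle values for 4 of 34 members (11.8%): Elovl6, Mvk and Stard4 above and Scap below. Over all tested genes this held for 19.4% (7.27% above and 12.1% below). Within the numbered pairs, 16 of 34 members (47.1%) differed in 1 direction in all 3 pairs, 7 of them higher and 9 lower with the agonist, beside 52.3% of all tested genes (20.7% higher and 31.6% lower).

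The sequences around the transcription starts of these genes are shown for the members on which the results turn. RefSeq promoter windows on GRCm38.p6, each with 250 bases before and 50 bases after a transcription start, were at hand for 28 of the 36 members. Fdps, Fdft1, Sqle, Fads1, Scd1, Scd2, Abcg1 and Stard4 had no window and were not searched. The windows follow 5′ to 3′ on the strand of the gene for Elovl6 (the member that rose), Scap and Fasn (lower with the block), and Hmgcs1 and Insig1 (SREBP target genes of textbooks). Capitals mark any SREBP site (TCACNCCAC), E-box (CACGTG), cyclic AMP response element (TGACGTCA) or CCAAT box (CCAAT), searched on both strands. The windows lie at chr3:129532136-129532435 (plus strand) for Elovl6, chr9:110333038-110333337 (plus) for Scap, chr11:120824498-120824797 (minus) for Fasn, chr13:119690101-119690400 (plus) for Hmgcs1 and chr5:28071162-28071461 (plus) for Insig1.
Elovl6: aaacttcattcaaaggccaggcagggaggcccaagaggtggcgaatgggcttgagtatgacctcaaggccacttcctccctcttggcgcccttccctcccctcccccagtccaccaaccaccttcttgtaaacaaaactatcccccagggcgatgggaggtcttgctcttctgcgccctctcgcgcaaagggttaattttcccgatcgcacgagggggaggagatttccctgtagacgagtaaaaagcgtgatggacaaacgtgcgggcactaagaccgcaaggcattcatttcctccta
Scap: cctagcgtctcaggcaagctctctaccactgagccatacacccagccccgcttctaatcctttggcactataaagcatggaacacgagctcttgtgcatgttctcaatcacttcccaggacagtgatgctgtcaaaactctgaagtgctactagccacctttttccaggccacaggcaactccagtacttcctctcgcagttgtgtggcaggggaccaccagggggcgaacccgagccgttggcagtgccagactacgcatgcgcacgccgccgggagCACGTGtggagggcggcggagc
Fasn: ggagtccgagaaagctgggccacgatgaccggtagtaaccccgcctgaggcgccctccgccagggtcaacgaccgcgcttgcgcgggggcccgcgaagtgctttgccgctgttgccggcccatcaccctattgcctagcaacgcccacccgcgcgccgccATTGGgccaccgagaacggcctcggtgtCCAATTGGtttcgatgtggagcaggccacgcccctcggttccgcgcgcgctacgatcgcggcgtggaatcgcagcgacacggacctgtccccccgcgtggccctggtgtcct
Hmgcs1: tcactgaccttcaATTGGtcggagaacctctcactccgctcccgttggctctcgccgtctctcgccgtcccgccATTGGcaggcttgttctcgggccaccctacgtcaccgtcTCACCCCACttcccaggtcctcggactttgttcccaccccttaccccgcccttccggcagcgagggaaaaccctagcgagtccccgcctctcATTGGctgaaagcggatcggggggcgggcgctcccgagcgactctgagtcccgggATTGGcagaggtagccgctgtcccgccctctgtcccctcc
Insig1: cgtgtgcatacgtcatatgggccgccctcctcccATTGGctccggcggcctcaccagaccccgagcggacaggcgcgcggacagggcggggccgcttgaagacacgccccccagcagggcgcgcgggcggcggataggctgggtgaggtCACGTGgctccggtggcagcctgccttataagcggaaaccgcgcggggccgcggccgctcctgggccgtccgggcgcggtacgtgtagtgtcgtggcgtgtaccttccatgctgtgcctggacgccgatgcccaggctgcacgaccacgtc
The SREBP site was found in the window of 1 of 28 members, Hmgcs1, and in those of 1.44% of the 27025 genes in the table. The E-box was in the windows of 7 of 28 members, Scap and Insig1 among them, and of 8.09% of all genes. In the printed Scap window it lies after the transcription start, at positions 28 to 33. Scap has another window, at chr9:110333106-110333405 (plus), which is not printed. There the E-box lies before the start, at positions -40 to -35. The cyclic AMP response element was in 1 member, Elovl5, and in 2.03% of all genes, and its shorter form TGACG, which lies within it, was in 11 members and 23.0% of all genes. The CCAAT box was in 21 of 28 members and 41.1% of all genes, and in the Fasn window 1 pair of CCAAT boxes overlaps on opposite strands. The GC box (GGGCGG, left in lower case) was in 22 of 28 members and 38.2% of all genes. None of these letters was in the Elovl6 window. A match is a description of the sequence, and a window without one says nothing of the factor.

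The labelled cell type was checked against markers. All 6 regulatory T cell markers were above 1 FPKM (Foxp3, Il2ra, Ikzf2, Ctla4, Cd4 and Cd3e). Their summed level was 1488 to 1588 FPKM in vehicle and 1640 to 1810 in agonist libraries, and Foxp3 itself lay between 109 and 154 FPKM. Ctla4 carried most of the difference in that sum, at 206 to 277 FPKM with vehicle and 314 to 414 with the agonist, while the ranges of the other 5 markers overlapped between the groups. Of 8 B cell markers, 2 had a mean of 1 FPKM or more (Ighm and Cd79b), and the sum was 317 to 331 FPKM with vehicle and 221 to 231 with the agonist. Nearly all of it was Ighm, at 311 to 325 and 217 to 226 FPKM, while Ms4a1 did not exceed 0.0611 and Pax5 0.00856 FPKM. Among 3 stromal and epithelial markers, Epcam and Pecam1 were above 1 FPKM. The sum of the 3 was 40.4 to 45.1 FPKM with vehicle and 31.8 to 39.4 with the agonist. Epcam carried the difference, at 25.1 to 26.7 and 16.0 to 20.0 FPKM, while the ranges of Pecam1 overlapped (14.3 to 18.1 and 15.7 to 19.0). Myeloid markers (1 of 7 above 1 FPKM) summed to 2.75 to 4.25 and 4.21 to 5.50 FPKM, CD8 T and NK cell markers (2 of 5) to 5.23 to 6.21 and 5.15 to 7.94, and erythroid markers (1 of 3) to 1.47 to 5.76 and 0.601 to 2.62. C1qa was listed at 0 in all 6 libraries. The part of these markers in the differences of the members was not tested. The libraries rest on 4.32 to 5.65 gigabases of aligned sequence, and mitochondrially encoded genes held 4.51 to 6.80% of the FPKM of reference genes.

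Fatty acid synthesis held the member that rose. Elovl6 (ENSMUSG00000041220.10, chr3:129532355-129638495, plus strand, mm10) had 16.9, 14.1 and 15.6 FPKM in vehicle libraries 1, 2 and 3 and 28.1, 28.8 and 32.0 FPKM in agonist libraries 1, 2 and 3. All 3 agonist libraries lay above all 3 vehicle libraries, and the groups did not overlap. The means were 15.6 ± 1.40 and 29.6 ± 2.11 FPKM (SD, n = 3 each), a log2 fold change of 0.89 (SE 0.09, 95% interval 0.67 to 1.11), with an adjusted p of 0.0181 by limma. Within the numbered pairs the log2 differences were 0.70, 0.98 and 0.99, and the blocked fit gave an adjusted p of 0.0166. The call passed under 11 of 19 alternatives, with adjusted p from 0.0125 to 0.119 and log2 fold changes from 0.71 to 0.98. Leaving out 1 library left the log2 fold change between 0.82 and 0.95. The call held without vehicle library 1 (adjusted p 0.0152) and was lost without vehicle library 2 (0.0753) or 3 (0.104) and without agonist library 1 (0.0687), 2 (0.0951) or 3 (0.0875). With no filter on low values the adjusted p was 0.119, and an exact permutation test of 3 against 3 libraries cannot give a two-sided p below 0.1. Loci assembled from each library's own reads at the same place gave 17.8, 15.9 and 17.5 FPKM with vehicle and 28.6, 28.8 and 37.7 with the agonist, a log2 difference of 0.84.

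The remaining fatty acid genes did not pass the test. Fasn encodes fatty acid synthase, which builds palmitate. Fasn (chr11:120805846-120824547, minus strand, mm10) had 32.6, 49.1 and 51.1 FPKM in vehicle libraries 1, 2 and 3 and 27.0, 41.2 and 45.2 FPKM in the agonist libraries. The ranges overlapped, library 1 was the lowest in both groups, and each agonist library was below the vehicle library of its number, by 0.27, 0.25 and 0.17 on the log2 scale. The log2 fold change of -0.23 (SE 0.23) had an adjusted p of 0.707 by limma, and with the replicate block 0.0444. That blocked call was lost when the pair numbered 1 (log2 fold change -0.21, adjusted p 0.0975), 2 (-0.22, 0.185) or 3 (-0.26, 0.162) was left out, and after quantile normalization (-0.17, 0.0941). Without the block, the log2 fold change of Fasn moved with single libraries, to -0.43 without vehicle library 1, -0.14 without vehicle library 2, -0.11 without vehicle library 3, -0.0086 without agonist library 1 and -0.37 without agonist library 3. Acly makes cytosolic acetyl-CoA from citrate and had the highest mean level of the group per length, with 68.5, 73.1 and 75.5 FPKM in vehicle and 66.7, 67.5 and 72.2 FPKM in agonist libraries. Its groups overlapped, and its log2 fold change was -0.07 (SE 0.08, adjusted p 0.727 by limma). Acaca, the acetyl-CoA carboxylase of fatty acid synthesis, was low throughout, at 1.06 to 1.48 FPKM with vehicle and 0.746 to 1.28 with the agonist.

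The desaturases were led by Scd2, which with Scd1 introduces the first double bond into saturated fatty acids. Scd2 had 33.9, 49.0 and 48.8 FPKM in vehicle libraries 1, 2 and 3 and 34.9, 54.0 and 58.1 FPKM in agonist libraries, low in library 1 of both groups, with a log2 fold change of 0.14 (SE 0.22, adjusted p 0.823 by limma). Scd1 was between 0.207 and 0.982 FPKM in all 6 libraries. The desaturases of polyunsaturated fatty acids, Fads1 and Fads2, had means of 15.2 and 3.67 FPKM over all libraries and log2 fold changes of -0.12 and -0.08 (-0.12 and -0.29 from assembled loci). Elovl5, which lengthens polyunsaturated fatty acids, was at 64.8, 65.4 and 79.7 FPKM with vehicle and 68.6, 61.4 and 78.1 with the agonist. Its log2 fold change was -0.01 (SE 0.12). Over the 9 genes, the summed level was 268 ± 30.9 FPKM with vehicle and 274 ± 33.7 with the agonist (SD, n = 3 each). Without Elovl6 it was 252 ± 31.8 and 245 ± 31.7 FPKM.

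**Figure D2:**
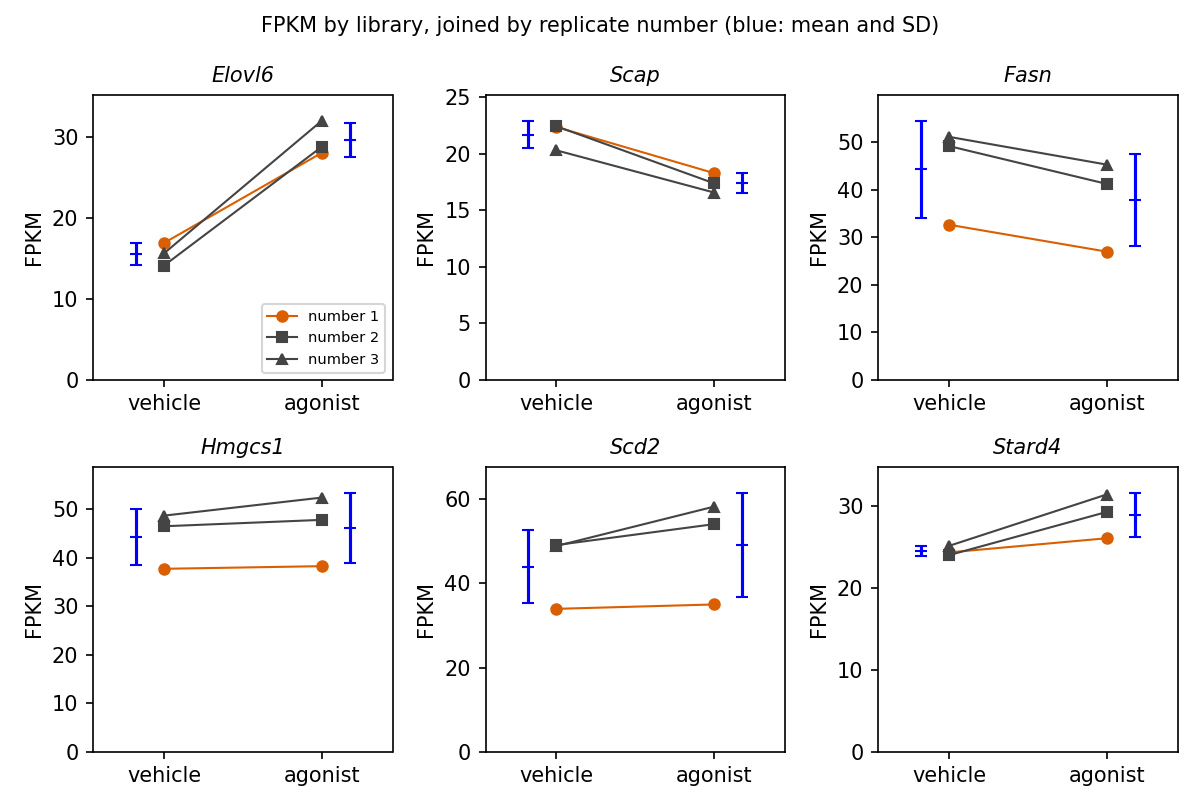
FPKM of 6 members in each library (points, joined by replicate number, with number 1 in orange), with the mean and SD of each group in blue beside the points. Elovl6 is higher in all 3 agonist libraries, the Scap groups do not overlap, and Fasn, Hmgcs1 and Scd2 are lowest in number 1 of both groups.

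In SREBP control, Scap, the sterol-sensing escort of SREBP, had the largest log2 fold change of the 5 genes. Scap (chr9:110333288-110384950, plus strand, mm10) had 22.3, 22.4 and 20.3 FPKM in vehicle libraries 1, 2 and 3 and 18.3, 17.4 and 16.6 FPKM in the agonist libraries. All agonist values were below all vehicle values. The log2 fold change of -0.30 (SE 0.08) had an adjusted p of 0.174 by limma and did not pass. The differences within the pairs were -0.28, -0.35 and -0.28, and with the replicate block the adjusted p was 0.0286. Leaving out the pair numbered 1, 2 or 3 raised it to 0.0675, 0.136 and 0.138, with log2 fold changes of -0.31, -0.28 and -0.31. After quantile normalization with the block the call of Scap was kept (-0.26, adjusted p 0.0387). With coverage in place of FPKM and no block, the estimate was -0.218 (adjusted p 0.369 by limma). The assembled loci at Scap differed less evenly from pair to pair than the reference rows. Vehicle loci 1, 2 and 3 were at 22.3, 23.7 and 22.9 FPKM, against 20.3, 17.4 and 19.4 for the agonist loci. These values did not overlap either (log2 difference -0.263), and the blocked fit was not run on them. Srebf2 encodes the SREBP that mainly drives sterol genes and had 64.5, 61.8 and 69.6 FPKM with vehicle and 58.4, 57.9 and 65.3 FPKM with the agonist. It was lower in each of the 3 pairs, but in the reference rows its groups overlapped, and its log2 fold change of -0.11 (SE 0.09) had an adjusted p of 0.618 by limma. The loci assembled at Srebf2 had 69.9, 66.5 and 69.6 FPKM with vehicle and 58.4, 57.9 and 65.3 with the agonist. Those values did not overlap, and their log2 difference was -0.18. Srebf1, which encodes the SREBP that mainly drives fatty acid genes, was at 28.9 to 31.8 FPKM with vehicle and 28.9 to 32.5 with the agonist. Its log2 fold change was -0.01 (SE 0.08), with a 95% interval from -0.19 to 0.18.

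The Insig genes encode the proteins that retain Scap in the endoplasmic reticulum, and Insig1 is itself an SREBP target. Insig1 had 25.1, 30.5 and 28.2 FPKM with vehicle and 24.6, 33.8 and 29.7 with the agonist, and Insig2 was at 5.10 to 6.10 and 5.97 to 6.78 FPKM. Their log2 fold changes were 0.06 (SE 0.13) and 0.12 (SE 0.10), and neither passed the test. The 5 genes together summed to 151 ± 3.45 FPKM with vehicle and 144 ± 6.56 with the agonist (SD, n = 3 each). Srebf1 shares its strand with Mir6921 and overlaps Rai1 on the opposite strand, so its FPKM may hold reads of these genes.

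The mevalonate pathway makes isoprenoid units for cholesterol and for protein prenylation. None of its 7 genes passed the test with or without the block, and their summed level was 204 ± 18.2 FPKM with vehicle and 199 ± 26.8 with the agonist (SD, n = 3 each). By library the sum was 182.9, 212.0 and 216.4 FPKM in vehicle libraries 1, 2 and 3 and 167.6, 215.1 and 212.9 FPKM in agonist libraries 1, 2 and 3. Library 1 was the lowest of both groups, and the groups overlapped. Fdps, which makes farnesyl diphosphate, had the highest mean level, with 59.82, 67.70 and 67.25 FPKM with vehicle and 50.04, 67.11 and 62.18 with the agonist (log2 fold change -0.13, SE 0.12, adjusted p 0.689 by limma). Pmvk, which phosphorylates mevalonate phosphate, had the largest fold change of the group, with 14.6, 20.2 and 20.8 FPKM with vehicle and 11.9, 17.9 and 15.7 with the agonist. It was lower in each pair, and its log2 fold change of -0.27 (SE 0.18) had an adjusted p of 0.538 by limma and of 0.0547 with the block.

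Hmgcs1, the cytosolic synthase of HMG-CoA, whose promoter holds the SREBP site printed with the windows, had 37.7, 46.5 and 48.7 FPKM with vehicle and 38.3, 47.8 and 52.4 with the agonist. The differences within its pairs were positive but small, and its log2 fold change was 0.05 (SE 0.14). Mvk, mevalonate kinase, had 9.43, 8.54 and 9.40 FPKM with vehicle and 9.68, 10.8 and 10.8 with the agonist. All its agonist values were above its vehicle values, with a log2 fold change of 0.17 (SE 0.08) and an adjusted p of 0.421 by limma. Acat2, Mvd and Idi1, which act at the start and later in the pathway, had mean levels of 17.6, 20.8 and 28.5 FPKM and log2 fold changes of -0.03, -0.04 and 0.04.

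From squalene to cholesterol, none of the 11 enzymes passed the test with or without the block. Their log2 fold changes ran from -0.58 for Dhcr7 (-0.15 without vehicle library 3) to 0.13 for Msmo1, with a median of -0.06, and their summed level was 187 ± 13.9 FPKM with vehicle and 179 ± 19.2 with the agonist (SD, n = 3 each). By library the sum was 174.3, 184.4 and 201.8 FPKM with vehicle and 156.4, 190.6 and 188.7 with the agonist. The sum of vehicle library 3 holds a single high Dhcr7 value of 16.3 FPKM. Ebp, the sterol isomerase of the late pathway, had the highest mean level of the group, with 34.87, 34.75 and 35.02 FPKM with vehicle and 32.17, 34.93 and 36.02 with the agonist. Its log2 fold change was -0.02 (SE 0.07, adjusted p 0.929 by limma). Sqle, the squalene epoxidase, had 23.7, 28.8 and 29.4 FPKM with vehicle and 19.4, 27.7 and 27.5 with the agonist, lower in each pair and lowest in library 1 of both groups. Its log2 fold change was -0.14 (SE 0.15, adjusted p 0.736 by limma). Cyp51, the lanosterol demethylase, showed the same low library 1, with 25.0, 29.1 and 30.6 FPKM and 22.7, 30.5 and 30.0 FPKM. Lanosterol synthase, Lss, was at 5.33, 8.01 and 7.21 FPKM with vehicle and 4.88, 8.24 and 6.66 with the agonist.

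Dhcr7, the reductase that makes cholesterol from its last precursor, had 7.18, 5.35 and 16.3 FPKM with vehicle and 6.18, 5.71 and 4.65 with the agonist, so that vehicle library 3 stood alone. Its log2 fold change of -0.58 (SE 0.34) had an adjusted p of 0.496 by limma. Without vehicle library 3 it was -0.15, without vehicle library 2 it was -0.88, and in the blocked fit without the pair numbered 3 it was -0.053. The locus assembled at the same place had 15.0, 17.8 and 16.3 FPKM in vehicle libraries 1, 2 and 3 and 15.2 FPKM in agonist library 2. The deposited reference row and the assembled locus thus differed for 3 of these 4 libraries. Tm7sf2, a sterol reductase, had 7.28, 4.46 and 6.21 FPKM with vehicle and 4.35, 4.81 and 3.26 with the agonist. The groups overlapped, and the log2 fold change of -0.43 (SE 0.18) had an unadjusted p of 0.0495 and an adjusted p of 0.357 by limma. Tm7sf2 shares its strand with Vps51, so its FPKM may hold reads of that gene. The other enzymes of this stretch, Fdft1, Msmo1, Nsdhl, Hsd17b7 and Sc5d, had mean levels from 3.65 FPKM for Hsd17b7 to 20.5 FPKM for Sc5d and log2 fold changes from -0.07 to 0.13. Cyp51 overlaps Akap9, Mvd overlaps Gm20388 and Fdft1 overlaps Ctsb on opposite strands, and Fdps shares its strand with Gm43738 and Scd2 with Mir5114.

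LXR signalling and sterol transport was represented by 4 genes, and none passed the test. Stard4, a cytosolic carrier of cholesterol, had 24.3, 24.0 and 25.1 FPKM with vehicle and 26.1, 29.3 and 31.4 with the agonist. Its groups did not overlap, and its log2 fold change of 0.23 (SE 0.09) had an adjusted p of 0.313 by limma and of 0.0796 with the block. Nr1h2, which encodes LXR beta, had 46.7, 37.1 and 33.7 FPKM with vehicle and 47.5, 39.5 and 37.8 with the agonist, highest in library 1 of both groups (log2 fold change 0.09, SE 0.14, adjusted p 0.819 by limma). The sterol exporter Abcg1, an LXR target, was at 10.1, 10.3 and 14.2 FPKM with vehicle and 10.5, 9.79 and 13.8 with the agonist. Its log2 fold change was -0.02 (SE 0.17). Abca1, the other exporter and LXR target, was listed at 0.402, 0.194 and 0.373 FPKM and at 0.558, 0.457 and 0.510 FPKM. Those values do not overlap but lie below the level required for testing. The 4 genes summed to 75.5 ± 5.28 FPKM with vehicle and 82.4 ± 2.94 with the agonist (SD, n = 3 each).

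**Figure D3:**
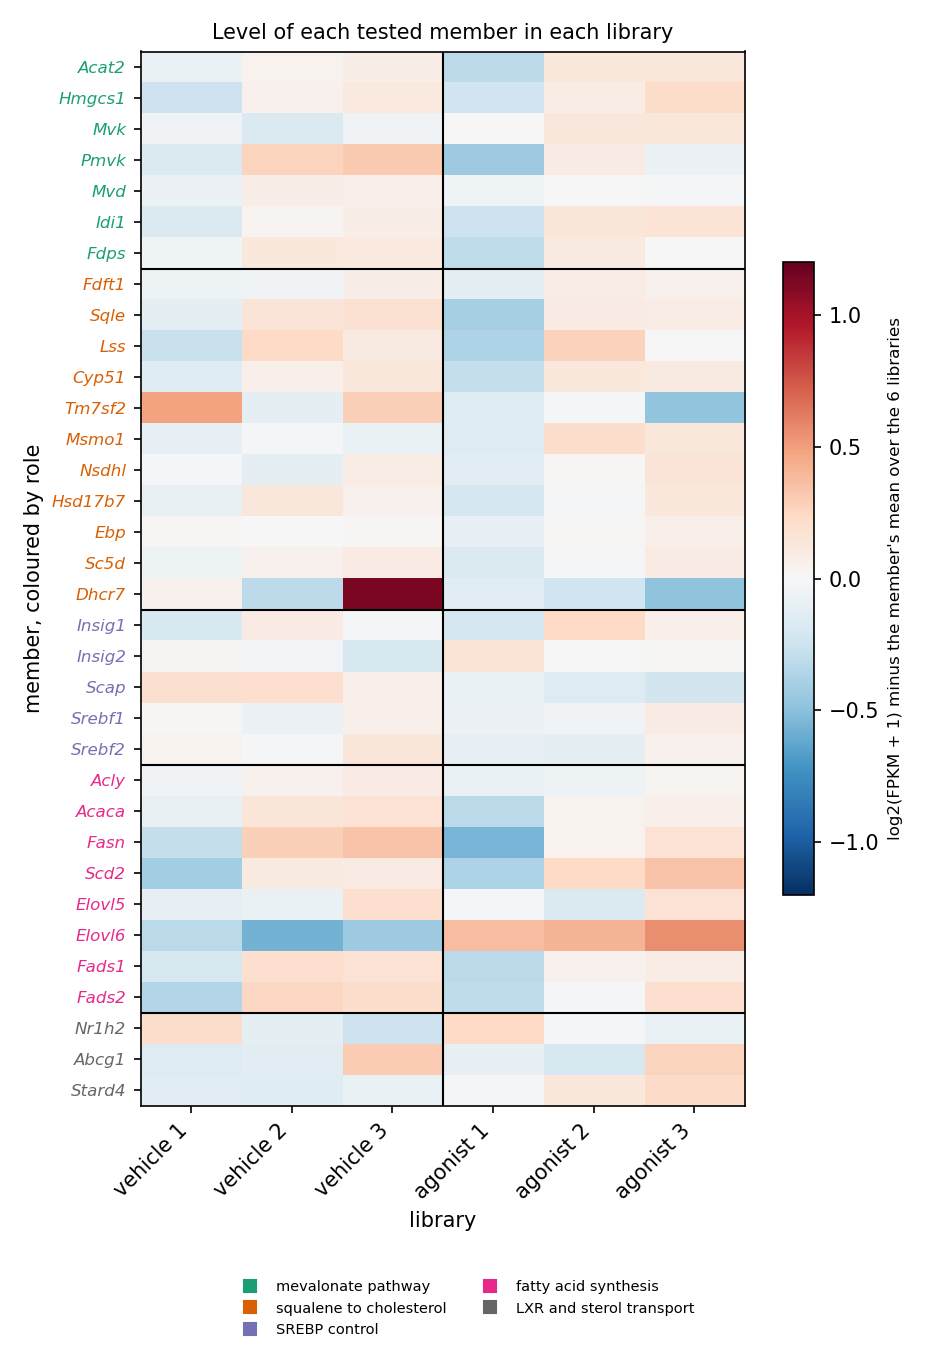
Level of each tested member in each library as log2(FPKM + 1) minus the member's mean over the 6 libraries (red higher, blue lower), with members in rows by role and libraries in columns. Most mevalonate, sterol and fatty acid rows are blue in library 1 of both groups, and Elovl6 is blue in all vehicle and red in all agonist libraries.

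The members also differed between replicate numbers. In 20 of 34 tested members (58.8%) library 1 was the lowest of the 3 in both groups, beside 22.1% of all tested genes, and in 2 members (5.88%), Insig2 and Nr1h2, it was the highest in both, beside 28.4%. Number 1 had been named beforehand as a replicate that may differ, and libraries 2 and 3 were not counted in this way. These counts rest on 1 library per group, and the members are not separate observations of it. By role, library 1 was lowest in both groups for 6 of 7 mevalonate genes, 7 of 11 genes from squalene to cholesterol, 6 of 8 tested fatty acid genes, 1 of 5 genes of SREBP control (Insig1) and 0 of 3 tested LXR and transport genes. The median difference of library 1 from the mean of libraries 2 and 3, on the log2 scale, was -0.15 in vehicle and -0.21 in agonist for the members. For all tested genes it was 0.02 and 0.03. For Fasn it was -0.60 and -0.66, and for Scap 0.06 and 0.10. In the same libraries Foxp3 was at 153, 109 and 133 FPKM in vehicle 1, 2 and 3 and at 154, 124 and 126 FPKM in agonist 1, 2 and 3. Cd4 was likewise highest in library 1 of both groups, at 128, 102 and 111 and at 149, 117 and 122 FPKM. Il2ra was lowest there, at 787, 834 and 923 FPKM with vehicle and 786, 828 and 937 with the agonist. For Ctla4, Ikzf2 and Cd3e, library 1 was neither highest in both groups nor lowest in both. The depth of the libraries numbered 1 was 4.95 and 4.98 gigabases, inside the range of the others. The part of these values in the pattern was not tested, and the labels do not say what the number stands for. Within the pairs, the median log2 difference of the members between agonist and vehicle was -0.09 for number 1, 0.03 for number 2 and -0.02 for number 3, against -0.03 for all tested genes in each pair. Under quantile normalization, upper quartile scaling and coverage in place of FPKM, the count of members lowest in library 1 of both groups was 19, 20 and 19, beside 25.1, 22.6 and 21.6% of all tested genes.

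**Figure D4:**
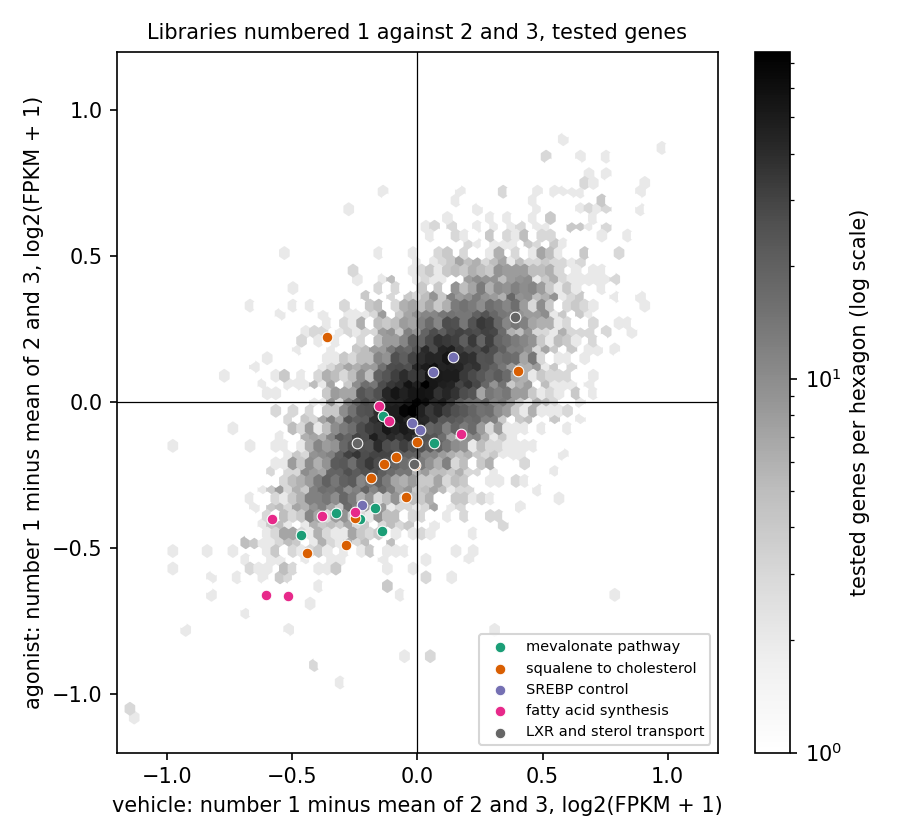
Difference of the library numbered 1 from the mean of libraries 2 and 3, on the log2(FPKM + 1) scale, in vehicle (horizontal) and agonist (vertical), for all tested genes inside the plotted range (grey hexagons, darker for more genes) and for the 34 tested members (coloured by role). Most members lie at the lower left, below 0 in both groups, and 4 members (Nr1h2, Insig2, Tm7sf2 and Scap) are above 0 in both.

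A further 45 genes of the same pathways that are no members were read from the same fit, and 40 of them were tested. None was called higher or lower by limma without the block, where 2 had an unadjusted p under 0.05 (Acsl4 and Hacd3), and their median log2 fold change was -0.04. With the block 2 were called higher and 2 lower, 10% of the 40 beside 10.5% of all tested genes. Hacd3, a dehydratase that acts in the same elongation cycle as Elovl6, was at 30.1 ± 3.65 FPKM with vehicle and 41.5 ± 5.30 with the agonist (SD, n = 3 each), with an adjusted p by limma of 0.190 without and 0.0167 with the block. Tecr, Hsd17b12 and Hacd2 act in that cycle too, and none of them passed. Tecr was at 107 ± 1.74 and 96.5 ± 3.85 FPKM (log2 fold change -0.15), and the log2 fold changes of Hsd17b12 and Hacd2 were 0.04 each. Acsl4, which activates polyunsaturated fatty acids, was at 16.7 ± 1.04 and 21.0 ± 0.903 FPKM, with adjusted p of 0.168 and 0.0293. Hacd3, Acsl4 and Soat1 had all 3 agonist values above all 3 vehicle values (7.5% of the 40, beside 7.27% of all tested genes). Tecr had all of them below (2.5%, beside 12.1%). In either direction this held for 4 of the 40 genes (10%), beside 19.4% of all tested genes. Acsl5, another acyl-CoA synthetase, was at 67.2 ± 9.94 and 52.6 ± 8.19 FPKM, with adjusted p of 0.371 and 0.0210. Tmem97, a sterol-responsive membrane protein, was at 18.4 ± 5.91 and 13.8 ± 3.74 FPKM, with adjusted p of 0.592 and 0.0481. Elovl1, which lengthens very long saturated fatty acids, had the fifth smallest blocked p of the list and did not pass, at 43.6 ± 4.88 and 37.2 ± 3.29 FPKM with adjusted p of 0.423 and 0.0646. In the blocked fit without the pair numbered 1, 2 or 3, all 4 of these calls were lost: limma called 0 of the 40 genes higher and 0 lower, with 13, 5 and 6 at an unadjusted p under 0.05. Over the alternatives their log2 fold changes ran from 0.35 to 0.54 for Hacd3, 0.27 to 0.36 for Acsl4, -0.48 to -0.21 for Acsl5 and -0.66 to -0.16 for Tmem97. Library 1 was the lowest in both groups for 12 of these 40 genes (30%), beside 22.1% of all tested genes. It was the highest in both for 7 of the 40 (17.5%), beside 28.4%.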

How the data were processed

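The authors deposited 1 table per library on mm10 with FPKM and coverage (signal per base) for reference genes and for loci assembled from that library; per the submitters' processing notes, Trim Galore and HISAT2 were used, without versions. For the abundance program, its annotation and its strand setting, the entry is "not given in the sources used here". The deposited FPKM were used as they stand, and coverage served as an alternative. The members and lists were chosen with earlier results of these data known.

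Genes with FPKM of at least 1 in 3 or more of the 6 libraries (12186 genes) were tested on log2(FPKM + 1), a scale that understates changes of low genes, with limma 3.58.1 (R 4.3.3; trend, robust variances through statmod 1.5.0). P-values were adjusted by Benjamini-Hochberg, with a threshold of 0.05. The script was tested on simulated data. Tables and plots used Python 3.11.15, pandas 2.3.3, numpy 2.4.6 and matplotlib 3.10.9. Deviations from the group means correlated at 0.512, 0.404 and 0.321 for libraries with the same number and at -0.353 to 0.00197 otherwise. Within a group the deviations of a gene cancel out, so positive same-number values push the others down. The other values are therefore no separate evidence of pairing. All same-number values exceeded 0.1, and the libraries were therefore treated as pairs, on these correlations alone, which favours small p-values in the blocked fit. Fragment counts could not be recovered, so depth is given as aligned gigabases, from the ratio of coverage to FPKM, and no counting error is given. Values by library were printed for members that passed with or without the block and for the member of each role with the highest mean FPKM and the one with the largest fold change. Further members were shown by library after their values were seen: Mvk, Hmgcs1, Sqle, Cyp51, Lss, Tm7sf2, Scd2, Elovl5, Insig1, Abcg1 and Abca1. Related genes were named where they passed or were among the 5 smallest blocked p-values. Tecr, Hsd17b12, Hacd2 and Soat1 were named after their values were seen. Alternatives covered the pseudocount, filter, scaling, coverage, model, block and left-out libraries.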

Additional observations from a re-analysis of the deposited data

How the results depend on the processing

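The number of tested genes called higher and lower, 42 and 6, moved most with the replicate block (498 and 781) and with quantile normalization and the block together (519 and 478, added after the data were seen). It was 2 and 0 with no filter on low values, where 2253 genes had an unadjusted p under 0.05 by limma. Upper quartile scaling gave 68 higher, and coverage in place of FPKM gave 85 and 11. Leaving out 1 library gave 0 to 107 higher and 0 to 26 lower by limma, with 1033 to 2588 genes at an unadjusted p under 0.05. The blocked fit without the pair numbered 1, 2 or 3 gave 151, 0 and 1 higher and 90, 0 and 0 lower, with 3457, 2557 and 2431 genes at an unadjusted p under 0.05. Members called higher, 1 as reported, were 0 with no filter (3 at an unadjusted p under 0.05), 0 to 1 with 1 library left out and 0 in the blocked fit without pair 2 or 3 (5 and 4 at an unadjusted p under 0.05 by limma). Members called lower, 0 as reported, were 2 with the block and 1 with quantile normalization and the block. Related genes called higher, 0 as reported, were 2 under both of these settings, and related genes called lower, also 0, were 2 and 1. In the blocked fit without the pair numbered 1, 2 or 3 both counts were 0 (13, 5 and 6 at an unadjusted p under 0.05 by limma). Among the members and related genes, the block changed no other call. The median log2 fold change of the members ran from -0.0978 to 0.0252 with 1 library left out and was -0.0978 without agonist library 3. It was 0.0108 under quantile normalization and 0.00785 under upper quartile scaling. Ebp, which was not called, changed sign under quantile normalization (0.0251 with and without the block), upper quartile scaling (0.0189) and the blocked fit without pair 1 (0.0236), and it ran from -0.0554 to 0.0238 with 1 library left out. Acly, also not called, was at 0.00342 under quantile normalization with and without the block. Nr1h2 ran from -0.00697 to 0.223 with 1 library left out, and its assembled loci gave -0.0582. The cause of these shifts was not tested beyond what each setting removes or adds.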
